A study of Mus musculus with 4 samples.

Results

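The genes described here were 10 enzymes of glycolysis in mouse spermatocytes, out of 37718 gene rows in the count tables. They were chosen by symbol and matched to Ensembl gene identifiers. Hk1, Gpi1 and Pfkp belong to the sugar-phosphate steps, Gapdhs, Pgk2, Pgam2, Eno1 and Eno4 to the later payoff steps, and Ldha and Ldhc are lactate dehydrogenases. All 10 had a gene row, 9 had introns, and all 10 passed the filter on low counts. RNA was measured in 4 samples, 2 of genotype Tdrd6+/- and 2 of genotype Tdrd6-/-, each from testes pooled from at least 4 mice at 20dpp. The cells were hCD4+ cells taken by magnetic sorting, where human CD4 was expressed from the endogenous Tdrd6 promoter in the germ cells of both genotypes, and the series labels the cells as diplotene. The Tdrd6+/- samples, which carried 1 disrupted Tdrd6 allele, were the controls, and no wild type was measured. Nothing in the labels says that the 2 samples of a genotype came from separate litters or sorts, so the p-values measure the spread between these pools.

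Glycolysis turns glucose into pyruvate, and lactate dehydrogenase interconverts pyruvate and lactate while regenerating NAD. Male germ cells use isozymes that other tissues lack or hardly make: LDHC is the lactate dehydrogenase of the testis and sperm, PGK2 is encoded by an intronless autosomal copy of the X-linked Pgk1, GAPDHS and ENO4 belong to the sperm tail, and HK1 is made there from transcripts with their own 5′ exons. Pgk1 cannot be transcribed normally in late meiotic prophase because the X chromosome is silenced, and the sperm tail isozymes are mostly made after meiosis. Ldha, Eno1, Gpi1 and Pfkp are forms that somatic cells also use, and PGAM2 is the phosphoglycerate mutase of muscle and sperm.

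The start regions of several members are given first. Promoter windows (250 bases before to 50 bases after an annotated start, RefSeq, GRCm38.p6) are shown for Ldhc and its general partner Ldha, for Pgk2, and for an upstream and a downstream start of Eno1, because the counts below separate these genes or starts. Windows of the reference table matched all 10 genes. The 5 motifs were searched on both strands and are in capitals: the cyclic AMP response element TGACGTCA, the shorter element TGACG that its first 5 letters also match, the GC box written GGGCGG, the TATA box written TATAAA and the CCAAT box.
Ldhc, chr7:46861013-46861312, plus strand: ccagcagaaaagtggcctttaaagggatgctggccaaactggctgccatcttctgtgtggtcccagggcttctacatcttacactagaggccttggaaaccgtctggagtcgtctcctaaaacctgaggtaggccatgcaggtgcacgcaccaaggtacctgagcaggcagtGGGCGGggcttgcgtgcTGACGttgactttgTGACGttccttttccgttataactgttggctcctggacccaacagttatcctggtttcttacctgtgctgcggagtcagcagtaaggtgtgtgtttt
Ldha, chr7:46845554-46845853, plus strand: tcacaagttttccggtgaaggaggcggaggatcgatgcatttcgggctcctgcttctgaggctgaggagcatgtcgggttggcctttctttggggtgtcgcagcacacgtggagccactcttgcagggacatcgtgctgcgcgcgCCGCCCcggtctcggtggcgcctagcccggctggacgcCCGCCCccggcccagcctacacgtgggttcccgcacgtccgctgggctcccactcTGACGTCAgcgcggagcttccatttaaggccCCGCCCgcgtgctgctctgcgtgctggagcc
Pgk2, chr17:40208560-40208859, minus strand: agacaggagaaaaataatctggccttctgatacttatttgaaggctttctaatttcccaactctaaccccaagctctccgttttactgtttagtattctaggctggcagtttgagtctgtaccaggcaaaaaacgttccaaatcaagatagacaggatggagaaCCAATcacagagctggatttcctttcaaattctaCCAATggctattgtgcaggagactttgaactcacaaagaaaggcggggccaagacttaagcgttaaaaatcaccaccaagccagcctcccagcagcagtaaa
Eno1 upstream start, chr4:150236458-150236757, plus strand: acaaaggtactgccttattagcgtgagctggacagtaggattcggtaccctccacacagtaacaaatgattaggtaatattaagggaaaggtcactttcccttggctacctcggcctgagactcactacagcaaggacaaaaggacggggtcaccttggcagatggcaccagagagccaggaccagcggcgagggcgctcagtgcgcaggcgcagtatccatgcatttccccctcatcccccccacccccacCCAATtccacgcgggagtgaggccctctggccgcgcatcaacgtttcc
Eno1 downstream start, chr4:150236947-150237246, plus strand: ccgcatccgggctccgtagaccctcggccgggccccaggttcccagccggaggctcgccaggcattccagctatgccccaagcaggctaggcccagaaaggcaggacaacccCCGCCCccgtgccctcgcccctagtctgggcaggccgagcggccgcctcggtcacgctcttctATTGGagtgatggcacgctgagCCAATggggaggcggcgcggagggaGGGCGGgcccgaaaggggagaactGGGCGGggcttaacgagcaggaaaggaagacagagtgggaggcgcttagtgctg
The Ldha window held TGACGTCA, found in 1.79% of the 32851 promoter windows of the table, as well as GGGCGG, found in 35.66%. The window of a second annotated start of Ldha, not shown, held TGACG but neither TGACGTCA nor GGGCGG. The Ldhc window held TGACG, found in 20.81% of windows, and GGGCGG, while the window of a second annotated start of Ldhc, not shown, held none of the 5 motifs. The windows of Pgk2 and of the upstream start of Eno1 held CCAAT, found in 37.41%, as did that of Pgam2, which is not shown, and the downstream start of Eno1 held both CCAAT and GGGCGG. The TATA box, found in 13.62% of windows, was in none of the 5. CpG dinucleotides numbered 30 in the window of Ldha, 9 in that of Ldhc, 4 in that of Pgk2, 14 at the upstream start of Eno1 and 24 at the downstream one, against a median of 7 over all windows. The windows of the second starts of Ldha and Ldhc, not shown, held 13 and 3 CpG dinucleotides. The motifs are matches of letters only.

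Short stretches of spliced RNA tell apart the transcript forms of Hk1 and Eno1 that the junction counts below compare. In each, the 15 bases of the upstream exon are in capitals and the first 15 of the downstream exon in lower case, from GENCODE M21 transcripts on mm10.
Hk1, germ cell form (exon segment 36 to 29): CTCACAGAGGAAAAGattgataagtatctg
Hk1, general form (exon segment 32 to 29): GACCAAGTCAAAAAGattgataagtatctg
Eno1, upstream first exon (segment 1 to 6): CCGCAGCCACGCCGAaaattcgccatgtct
Eno1, downstream first exon (segment 4 to 6): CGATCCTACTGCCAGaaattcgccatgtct
For Eno4, 2 annotated transcripts differ by 3 bases at the start of exon 2 (mm10, chromosome 19, 58945531 or 58945534), which are in capitals in the longer one.
Eno4, longer exon 2: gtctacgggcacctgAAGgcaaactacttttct
Eno4, shorter exon 2: gtctacgggcacctggcaaactacttttct

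Depth and sample identity were checked first. The gene rows summed to 26454326 to 31388750 counts per sample and the introns to 9603669 to 13937818. Tdrd6 itself had 33220 and 39322 counts in Tdrd6+/- samples against 359 and 400 in Tdrd6-/- samples, which fits the labels. All 7 late prophase spermatocyte markers were detected, with summed levels of 4894 to 5145 CPM (counts-per-million after TMM scaling), while the summed levels of 7 Sertoli, 5 Leydig, 3 myoid and 4 macrophage markers reached at most 50.9, 22.1, 3.89 and 5.98 CPM. Of 7 round spermatid markers, 5 were under 1 CPM, the protamine and transition protein genes among them, and the sum was 10.2 and 13.6 CPM in Tdrd6+/- and 22.6 and 20.6 CPM in Tdrd6-/- samples. Of 7 spermatogonial and early meiotic markers, the sum was 24.3 and 23.2 CPM against 28.0 and 31.9 CPM. The 3 globin genes with a row were at or near 0. Between genotypes, Sycp1 was higher (log2 fold change 0.60, adjusted p = 0.047, edgeR) and Piwil1 lower (-0.44, adjusted p = 0.077) among the late prophase markers, 2 of 3 tested round spermatid markers were higher, and 0 genes of the other marker lists passed the test.

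The order of the enzymes was dominated by Ldhc. Per kilobase of annotated exon, Ldhc stood at 2286 and 2450 CPM per kb in Tdrd6+/- and 2521 and 3107 CPM per kb in Tdrd6-/- samples, the fifth highest level among 18827 genes with at least 10 counts. Pgam2 followed with 518 ± 69.5 CPM per kb (SD, n = 4), then Ldha with 337 ± 31.9 and Pgk2 with 163 ± 30.7 CPM per kb. The ranges of these 4 genes did not overlap. A lower tier held Pfkp at 24.0 ± 1.82, Eno4 at 20.6 ± 2.35 and Hk1 at 19.0 ± 2.37 CPM per kb. The ranges of Pfkp and Eno4 overlapped, as did those of Eno4 and Hk1, but the order of the 3 was the same in each of the 4 samples. Eno1 lay below them at 10.7 ± 0.597 CPM per kb, Gpi1 at 2.29 ± 0.181 and Gapdhs at 1.59 ± 0.351 CPM per kb. Annotated exon includes retained introns in genes with many transcripts, so the order depends on the length used. With the length of the longest coding transcript, Ldha stood at 615 CPM per kb, above Pgam2 at 518, and Pfkp stood at 77.6, Hk1 at 37.9, Eno1 at 28.3 and Eno4 at 20.6 CPM per kb.

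**Figure D1:**
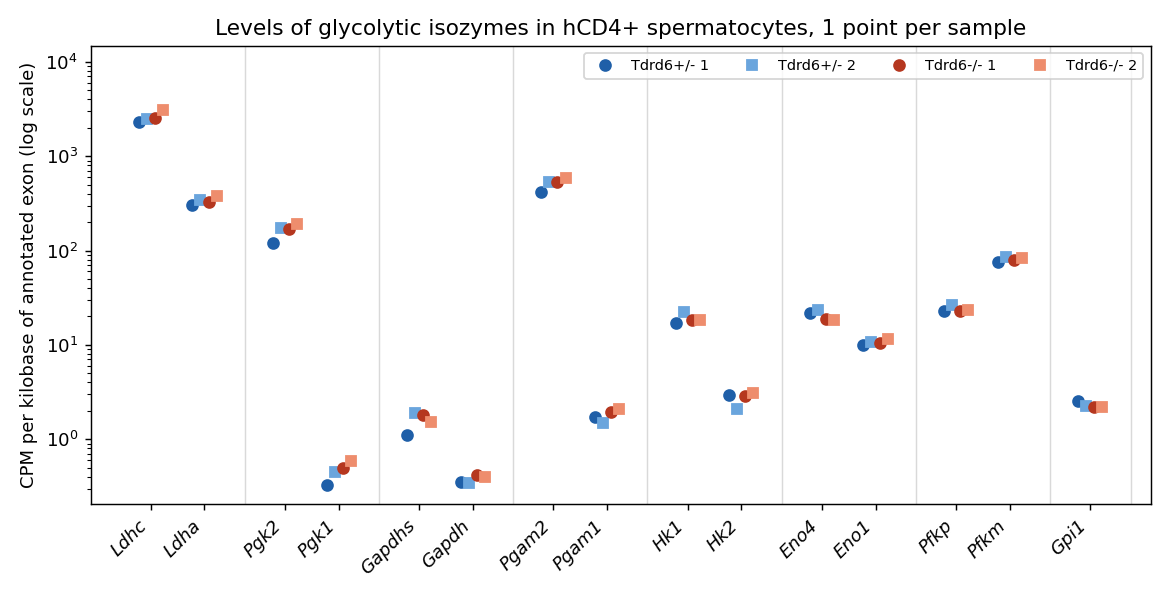
Level of each enzyme in each sample, in CPM per kb of annotated exon on a log axis, with isozymes beside their general partners; circles are replicate 1 and squares replicate 2, blue Tdrd6+/- and red Tdrd6-/-. Ldhc, Pgam2, Ldha and Pgk2 stand above 100 CPM per kb in all 4 samples, and Pgk1 and Gapdh stay below 1.

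Lactate dehydrogenase was expressed from both the testis gene and the general gene. Ldhc (chromosome 7, 46861203-46878142, plus strand) had 94580 and 107830 counts in Tdrd6+/- samples against 125975 and 157122 in Tdrd6-/- samples. In CPM this was 3612 and 3871 against 3984 and 4909, so that both Tdrd6-/- samples lay above both Tdrd6+/- samples. Ldha, its neighbour on chromosome 7 (46841475-46855627, plus strand), had 1006 and 1129 CPM against 1074 and 1256 CPM, with overlapping groups. The ratio of Ldhc to Ldha per kb was 7.52 and 7.18 in Tdrd6+/- and 7.77 and 8.19 in Tdrd6-/- samples, and Ldhc was the higher gene in 4 of 4 samples. Counted on the longest coding transcripts the ratio was 4.85, and without length correction 3.66. Of the 50-base windows of the longest coding transcript of Ldha, 16.6% occurred in transcripts of 14 other genes, and none of those of Ldhc did. How reads that match several genes were counted is not known. Ldhb, the heart form, was at 8.69 to 15.8 CPM per kb.

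Phosphoglycerate kinase came almost wholly from Pgk2 (chromosome 17, 40207015-40208640, minus strand, 1 exon). Pgk2 had 5064 and 7888 counts in Tdrd6+/- samples against 8626 and 9902 in Tdrd6-/- samples, whereas X-linked Pgk1 had 19 and 28, and 35 and 42. Per kb the ratio of Pgk2 to Pgk1 was 356 ± 28.3 (SD, n = 4), and it was 368 and 389 in Tdrd6+/- against 340 and 325 in Tdrd6-/- samples. None of the 50-base windows of Pgk2 occurred in a transcript of another gene, while 68% of those of the longest coding transcript of Pgk1 occurred in transcripts of 5 other genes. How the counting treated reads that match several genes is not given in the sources used here, so the count of Pgk1 is uncertain.

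Phosphoglycerate mutase showed the same order. Pgam2 (chromosome 11, 5801640-5803733, minus strand) had 9277 and 12591 counts in Tdrd6+/- samples against 13999 and 15778 in Tdrd6-/- samples. Pgam1, the form of most other tissues, had 89 and 83, and 121 and 132 counts. The ratio per kb was 289.7 ± 48.0 (SD, n = 4) and at least 246 in every sample. It was 123 without length correction. Of the windows of Pgam1, 41.5% were shared with transcripts of 4 other genes, and of those of Pgam2 none were.

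The sperm form of glyceraldehyde-3-phosphate dehydrogenase was low. Gapdhs (chromosome 7, 30729775-30743681, minus strand) had only 47 and 85 counts in Tdrd6+/- samples against 92 and 79 in Tdrd6-/- samples, and the row of Gapdh had 38 and 40, and 54 and 53. Their ratio per kb was 4.21 ± 0.965 (SD, n = 4) and 1.60 with the longest coding transcripts. For Gapdh, 82.5% of windows were shared with transcripts of 222 other genes, so its level cannot be read as that of the gene. Gapdhs ranked 9678 of 18827, in contrast to the other testis isozymes of the payoff steps.

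Enolase transcripts were split between genes. Eno4 (chromosome 19, 58943425-58971421, plus strand) had 1454 and 1677 counts in Tdrd6+/- samples against 1535 and 1516 in Tdrd6-/- samples. Eno1 (chromosome 4, 150236721-150248879, plus strand) had 1407 and 1591, and 1793 and 1969 counts. Per kb of annotated exon Eno4 stood above Eno1 in 4 of 4 samples, at ratios of 2.16 and 2.21 in Tdrd6+/- and 1.79 and 1.61 in Tdrd6-/- samples. The direction turned with the length of the longest coding transcript, at a mean ratio of 0.733, so no order of both genes can be given. Eno3, the muscle form, was present at 38.7 to 52.9 CPM per kb, above the 18.4 to 23.4 CPM per kb of Eno4 and the 9.99 to 11.4 of Eno1 in every sample.

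In the first steps of the pathway, Hk1 (chromosome 10, 62268855-62379908, minus strand) had 146 and 192 CPM in Tdrd6+/- and 155 and 156 CPM in Tdrd6-/- samples. Hk2, the inducible form of muscle and fat, had 12.6 to 18.4 CPM, and the ratio of Hk1 to Hk2 per kb was 7.18 ± 2.33 (SD, n = 4). Of the phosphofructokinases, Pfkp, the platelet form (chromosome 13, 6579768-6648777, minus strand), had 307 and 358 CPM against 308 and 315 CPM, and Pfkm, the muscle form, 249.8 and 283 CPM against 263 and 277 CPM. Their ratio was 0.299 ± 0.0142 per kb of annotated exon, 0.834 on the longest coding transcripts and 1.2 in counts, and thus had no stable direction across lengths. Pfkl, the liver form, was at 4.09 to 6.34 CPM. Gpi1 (chromosome 7, 34201330-34230336, minus strand), the only glucose-6-phosphate isomerase, was at 16.5 and 14.4 CPM in Tdrd6+/- and 14.0 and 14.3 CPM in Tdrd6-/- samples. Of the 50-base windows of its longest coding transcript, 25.3% were shared with transcripts of 122 other genes. For Pfkp, 17.1% were shared with 1 other gene. The counts of both are uncertain to that extent.

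No ratio of an isozyme to its partner was shown to differ between genotypes. Among 7 pairs, 4 had groups that did not overlap (Ldhc to Ldha higher in Tdrd6-/-, and Eno4 to Eno1, Pgk2 to Pgk1 and Pfkp to Pfkm lower), each with p = 0.33 and an adjusted p of 0.58 over the pairs (exact permutation test on log2 ratios, two-sided, n = 2 against 2). An exact p of 0.33 is the smallest that 2 against 2 samples allow, and groups of this size separate that often without any difference. No share over all pairs of genes was computed. For the levels of single genes, 20.1% of all genes tested had both Tdrd6-/- samples above both Tdrd6+/- samples, and 23.4% had both below. Among the 4 pairs without overlap the largest difference was that of Eno4 to Eno1, -0.36 on the log2 scale.

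Gene expression was then compared between genotypes. None of the 10 enzymes was called at an adjusted p under 0.1 by edgeR's quasi-likelihood test, where 4.80% of the 16555 genes tested were called. At an unadjusted p under 0.05 it was also 0 of the 10, where 14.0% of all genes tested were, and DESeq2 called none. The log2 fold changes of Tdrd6-/- over Tdrd6+/- ran from -0.27 to 0.29 with a median of 0.11, against 0.01 for all genes tested. Of these, 6 were positive and 4 negative. Pgk2 had 193 and 283 CPM in Tdrd6+/- and 273 and 309 CPM in Tdrd6-/- samples, with overlapping groups and a log2 fold change of 0.29 (SE 0.15, adjusted p = 0.42, edgeR). For Ldhc the log2 fold change was 0.25 (SE 0.14, adjusted p = 0.45, edgeR) and the 95% interval of the ratio ran from 0.986 to 1.43. For Eno4, with 55.5 and 60.2 CPM against 48.5 and 47.4 CPM, it was -0.27 (SE 0.14, adjusted p = 0.42, edgeR), with a ratio between 0.682 and 1.01. The intervals of the other members allowed ratios from 0.707 to 1.69, the widest being that of Gapdhs. All these intervals rest on a normal approximation, so they are narrower than the quasi-likelihood test would give.

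One enzyme, Ldhc, had both Tdrd6-/- samples above both Tdrd6+/- samples in CPM, as 20.1% of all genes tested did, and Eno4 and Gpi1 had both below, as 23.4% did. Without Tdrd6+/- replicate 2, Pgk2 had a log2 fold change of 0.59 and an adjusted p of 0.028 (edgeR), in a fit where the lone Tdrd6+/- sample is assumed to vary like the Tdrd6-/- pair. Fewer cells of a type and less RNA per cell cannot be told apart in such pooled RNA.

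**Figure D2:**
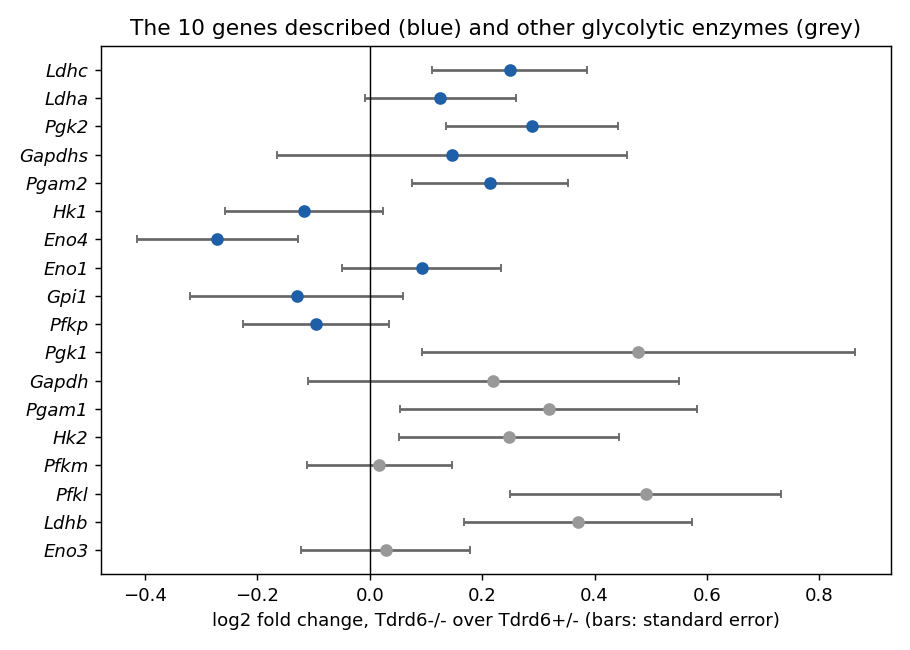
Log2 fold change of Tdrd6-/- over Tdrd6+/- for the 10 enzymes (blue) and 8 other glycolytic enzymes (grey), with bars of 1 standard error; n = 2 samples per genotype. The 10 enzymes lie between -0.27 and 0.29, and none passed the test at an adjusted p of 0.1.

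The wider pathway did not pass the test either. Of 31 listed glycolysis genes, 30 had a row, 26 were tested and 0 were called, with a median log2 fold change of 0.18. At an unadjusted p under 0.05 there were 3, all higher in Tdrd6-/-, a share no larger than the 14.0% of all genes tested. Aldoart1 and Aldoart2, testis-specific aldolase retrogenes, had 2.86 and 4.09 against 5.85 and 5.69 CPM, and 4.62 and 6.43 against 9.58 and 8.37 CPM, without overlap, at adjusted p = 0.16 and 0.13 (edgeR). Pkm, which makes pyruvate, was the third, at 35.4 and 29 against 37.5 and 43.6 CPM (adjusted p = 0.35, edgeR). Of 9 sugar and lactate transport genes none was called, and Slc2a3, a neuronal and germ cell glucose transporter, had the most counts, at 4361 to 4487 CPM. Slc2a5, a fructose transporter, was the only one of the 9 at an unadjusted p under 0.05, with 487 and 658 against 463 and 461 CPM (log2 fold change -0.31). Of 7 fibrous sheath genes, which encode the sperm tail scaffold that holds glycolytic enzymes, 2 rose, where 1.02% of all genes tested were called higher: Fscb from 0.726 and 1.76 to 4.02 and 3.41 CPM (log2 fold change 1.57, SE 0.35, adjusted p = 0.013, edgeR) and Ropn1 from 1.87 and 2.37 to 4.33 and 3.75 CPM (0.93, SE 0.28, adjusted p = 0.081, edgeR). Neither was called without Tdrd6+/- replicate 1 (adjusted p = 0.15 and 0.35, edgeR) or without the filter on low counts (adjusted p = 0.26 and 0.30). Ropn1 was also lost without Tdrd6-/- replicate 1 or 2 (adjusted p = 0.26 and 0.16, edgeR) and by DESeq2 (adjusted p = 0.14). The gene of that list with the most counts, Ropn1l, was at 608 to 709 CPM in all samples. The list was chosen with earlier results of these data known, so its 2 called genes are no test of the list. The round spermatid markers Acrv1 and Spaca1 also passed the test, with log2 fold changes of 0.96 and 0.83 (adjusted p = 0.057 and 0.036, edgeR), and their part in the fibrous sheath result was not tested.

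Transcript structure was read from the counts of exon segments and junctions. Most Hk1 RNA began at a first exon within the upstream part of the gene (segment 39, chromosome 10, 62362150-62362274), which had 259 and 367 counts in Tdrd6+/- samples against 315 and 301 in Tdrd6-/- samples. The general first exon (segment 32, 62340013-62340542) had 5 and 9, and 6 and 2 counts. Among reads that joined segment 38 to an upstream exon, segment 39 supplied 155 of 162 and 226 of 241 for Tdrd6+/-, against 204 of 231 and 165 of 182 for Tdrd6-/-. These are shares of 95.7% (95% Wilson interval 91.4 to 97.9), 93.8% (90.0 to 96.2), 88.3% (83.5 to 91.8) and 90.7% (85.6 to 94.1). The genotypes did not overlap, at 94.7% ± 1.35 and 89.5% ± 1.66 (SD, n = 2 each), and the exact permutation test gave its smallest p, 0.33. The remaining joins led mostly to segment 41, an exon further upstream (junction 75 with 4, 11, 19 and 12 counts). Segment 41 was itself joined to an exon upstream of it (junction 81 with 2, 7, 10 and 4 counts).

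The joins into segment 29, the first segment shared by the germ cell and general forms, gave the same picture. Reads from segment 36, whose sequence is shown above as the germ cell form, numbered 133, 157, 157 and 154, and reads from the general first exon 0, 1, 0 and 0. The germ cell forms of hexokinase lack the porin-binding stretch that the general first exon encodes and that anchors hexokinase to mitochondria. Segment 16, an alternative exon, was skipped by 96 of 101, 132 of 138, 95 of 95 and 110 of 115 reads, and its share of skipping had Wilson intervals that reached down to 88.9% and up to 100%. Such intervals cover counting error only.

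Most annotated joins into segment 6 of Eno1 came from its upstream first exon. Reads from the upstream first exon (segment 1, chromosome 4, 150236721-150236871) into segment 6 numbered 161, 190, 170 and 179, and reads from the downstream one (segment 4) 9, 14, 12 and 6. The upstream exon thus supplied 94.7% (95% Wilson interval 90.2 to 97.2) and 93.1% (88.8 to 95.9) of these joins in Tdrd6+/- samples, against 93.4% (88.8 to 96.2) and 96.8% (93.1 to 98.5) in Tdrd6-/- samples, with overlapping genotypes (exact permutation test, p = 0.67, n = 2 against 2). Further in, counts thinned out and came back. The join from segment 6 to segment 8 had 124, 167, 121 and 152 reads, and the next one, to segment 12, had 21, 19, 10 and 22. The 3 annotated joins between segments 13 and 20 had at most 5 reads in any sample. From segment 21 to 23 there were again 97, 71, 145 and 176. The coding exons 2 to 7 of Eno1 had 100% of their 50-base windows in transcripts of other genes, both those with many and those with few counts, and the transcript as a whole 72.2%, in 9 other genes. What reads in this stretch were assigned to is not known, and the gene level of Eno1 is uncertain.

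**Figure D3:**
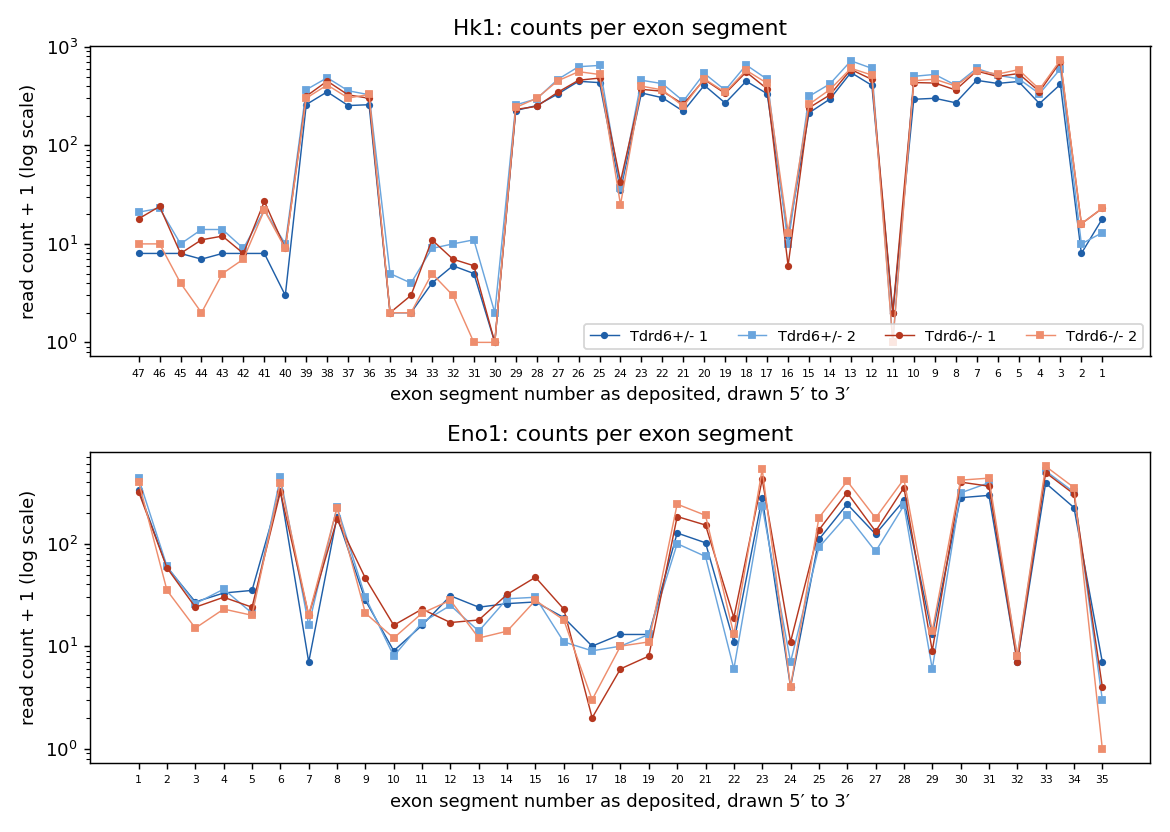
Counts per exon segment of Hk1 (upper panel) and Eno1 (lower panel) in each sample, drawn 5′ to 3′ with the segment numbers of the count table, on a log axis of count plus 1. In Hk1, segments 39 to 36 stand at 253 counts or more and segments 35 to 30 at 10 or fewer counts, and in Eno1 segments 10 to 19 stay below 50 counts between 2 higher blocks.

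Some junctions were absent from the annotation used by the authors. The first annotated junction of Eno4 (junction 15) had 0 counts in all 4 samples, although exons 1 and 2 on either side had 127 to 278. An unannotated junction of Eno4 had 56 and 110 counts in Tdrd6+/- samples against 87 and 82 in Tdrd6-/- samples, which is in the range of the other joins of the gene, and a second one had 5 to 10. The tables give no positions for unannotated junctions, so whether the first of them is the 3-base alternative printed above was not tested. Ldhc had 4 unannotated junctions, and the most used had 229 and 288, and 320 and 416 counts, next to 12538 to 22310 for its annotated junction 16. Eno1 had 3, the most used with 48, 53, 33 and 51 counts. The other 7 genes had no unannotated junction with 10 or more counts.

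Counts at the 5′ end of Ldhc differed between segments. Its segment 1 had 4805 and 6212 counts in Tdrd6+/- samples against 7076 and 9335 in Tdrd6-/- samples, segments 2 and 3 had 294 to 913, and segment 4 had 20497 to 35619. These segments could not be placed on the genome, because the annotation at hand holds another set of transcripts for Ldhc. Their lengths are therefore not known, and whether the counts mark alternative starts was not tested.

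Usage is the count of an exon segment or junction relative to the rest of its gene. For an intron it is the count relative to the gene's other introns. Both were tested by a likelihood ratio test of the interaction of feature and genotype. Of 383 exon segments and junctions of the 10 genes, 333 had at least 10 counts, 220 were tested and 3 were called at an adjusted p under 0.1, where 1.29% of all 153974 tested were called. Of 125 introns, 59 were tested and 2 were called, where 3.80% of all 48872 tested were called. The 5 features lay in Hk1, Ldha, Pfkp and Gpi1. No feature of Ldhc, Pgam2, Eno4 or Eno1 was called, none of Gapdhs passed the filter on low counts, and Pgk2 has 1 exon and cannot be tested. edgeR's diffSpliceDGE, a second test of usage, called none of the 5, and called 81 exons or junctions and 2 introns in all.

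A segment of the last exon of Hk1 was called as used more in Tdrd6-/- samples, by the likelihood ratio test only. Segment 3 (chromosome 10, 62269108-62269908, 801 bases, the main part of the terminal exon) had 416 and 598 counts in Tdrd6+/- samples against 706 and 735 in Tdrd6-/- samples. As a percentage of the gene's counts this was 10.9 and 11.2 against 14.4 and 14.8, without overlap. The log2 change in usage was 0.45 (SE 0.08, adjusted p = 5.59e-06, likelihood ratio test). With each sample left out in turn, which leaves 1 sample in a genotype and takes the spread from the pair of the other, adjusted p was between 0.004 and 0.092. By edgeR's diffSpliceDGE the change was 0.44 at an unadjusted p of 0.023 and the call was lost. The 2 segments next to it, 4 and 5, had 265 and 334 against 351 and 371 counts, and 445 and 475 against 536 and 587 counts. Segment 13, in the middle of the gene, had 549 and 722 against 589 and 606 counts (log2 change -0.23, adjusted p = 0.17, likelihood ratio test).

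The other called exon segments changed less. Pfkp segment 47 had 429 and 564 counts in Tdrd6+/- samples against 682 and 668 in Tdrd6-/- samples, or 5.34% and 5.66% against 7.01% and 6.63% of the gene's counts (log2 change 0.33, SE 0.08, adjusted p = 0.013, likelihood ratio test). Without Tdrd6+/- replicate 1, Tdrd6-/- replicate 1 or Tdrd6-/- replicate 2 the call was lost, at adjusted p between 0.34 and 0.56. Ldha segment 21 held 40.8% and 40.6% of the gene's counts in Tdrd6+/- and 38.5% and 39% in Tdrd6-/- samples. Relative to the rest of the gene, its log2 change was -0.11 (SE 0.03, adjusted p = 0.017, likelihood ratio test). The call was lost with any 1 sample left out, at log2 changes between -0.130 and -0.0997. Neither segment could be placed.

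**Figure D4:**
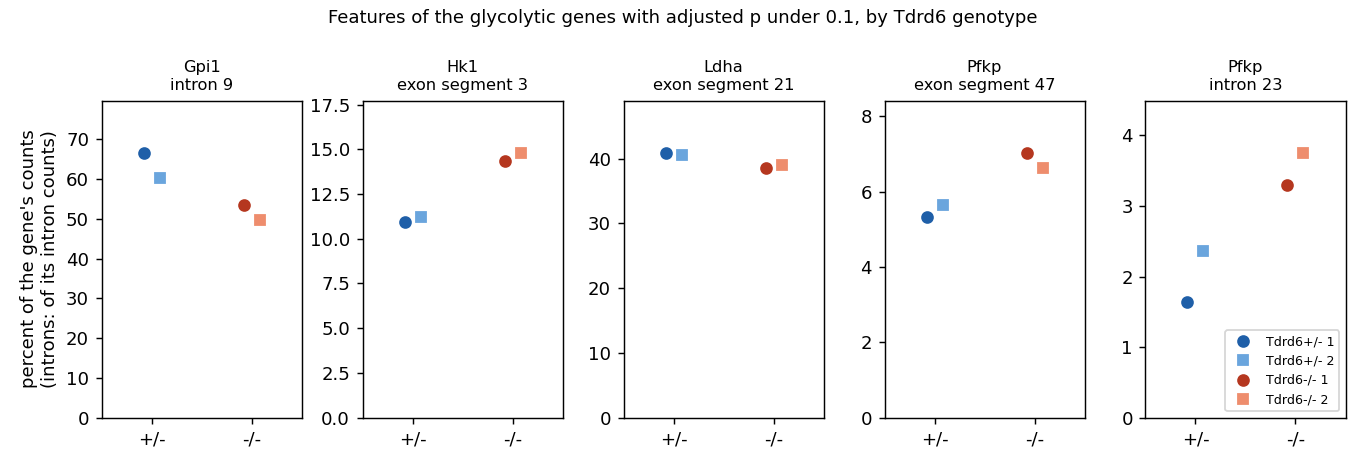
Share of each called feature in the counts of its gene (for introns, in the intron counts of its gene), in percent on linear axes from 0, by Tdrd6 genotype with 1 point per sample. In all 5 panels the 2 genotypes do not overlap, which the call at an adjusted p under 0.1 favours by construction.

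Features at an unadjusted p under 0.05, whether called, uncalled or filtered from the adjustment, were most frequent in Eno1 and Pfkp. There were 15 of 49 exon segments and junctions of Eno1 and 16 of 71 of Pfkp, where 6.74% of all such features were. Of 114 introns of the 10 genes with at least 10 counts, 12 were at such a p, the 2 called ones among them, where 8.56% of all introns were. Segments of one gene share reads and a total, so they are not separate results. In Eno1 the 5′ block was lower in Tdrd6-/-: segment 1 had 333 and 432 against 319 and 400 counts (log2 change -0.53, adjusted p = 0.13, likelihood ratio test) and segment 6 had 329 and 444 against 319 and 394. The block from segment 20 to 23 was higher: segment 23 had 280 and 232 against 423 and 532 counts (0.71, adjusted p = 0.23, likelihood ratio test). In Pfkp, segments 14 to 22 supplied 6 that were lower, such as segment 18 with 733 and 733 against 577 and 465 counts, and segments 40 to 49 supplied 5 that were higher, the called segment 47 among them. In the remaining genes with a tested feature, the smallest p belonged to junction 23 of Eno4 (76 and 94 against 109 and 109 counts), junction 14 of Ldhc (223 and 254 against 337 and 410 counts) and segment 2 of Pgam2 (4595 and 6373 against 6536 and 7774 counts), at adjusted p = 0.33, 0.70 and 0.79 by the likelihood ratio test.

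Both called introns were in genes whose introns could not be placed. Intron 9 of Gpi1 had the most counts among that gene's introns, with 182 and 121 counts in Tdrd6+/- samples against 159 and 86 in Tdrd6-/- samples. Its share of the intron counts was 66.4% and 60.2% against 53.5% and 49.7%. Relative to the other introns of the gene, its log2 change was -0.69 (SE 0.24, adjusted p = 0.0995, likelihood ratio test). Intron 23 of Pfkp had 77 and 117 counts against 143 and 127, or 1.64% and 2.36% against 3.30% and 3.75% (log2 change 0.84, SE 0.26, adjusted p = 0.056, likelihood ratio test). The Gpi1 call was lost with any 1 sample left out (adjusted p between 0.11 and 0.99), and the Pfkp call without Tdrd6+/- replicate 1 or either Tdrd6-/- sample (adjusted p between 0.15 and 0.74). A pair of introns dominated Pfkp: intron 7 with 1846 and 1827 against 1524 and 1006 counts, and intron 8 with 644 and 612 against 538 and 369 counts. In Ldhc intron 4 (46861896-46866408) had the most counts, 3649 and 3993 against 4494 and 5353, a steady 26.5% to 28.0% of its intron counts. In Eno4 intron 6 (58955550-58957586) had 250 and 195 against 186 and 159 counts.

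The share of reads in introns was lowest for Ldha, Pgam2 and Ldhc. It was not corrected for intron length, and retained introns that are annotated as exon count with the gene. Shares of different genes are therefore not compared on equal terms. Intron counts as a percentage of intron plus gene counts were 4.56 and 4.42 in Tdrd6+/- and 4.11 and 4.07 in Tdrd6-/- samples for Ldha, 6.35 and 6.54 against 6.48 and 6.48 for Pgam2, and 12.7 and 11.7 against 11.8 and 11.2 for Ldhc. The shares were 20.9 and 21.2 against 19.2 and 15.6 for Hk1 and 23.9 and 23.3 against 21.3 and 17.9 for Eno1. For Eno4, Gpi1 and Pfkp they lay between 25.2 and 40.1. Gapdhs had the highest share, 50.5 and 49.4 against 56.2 and 52.1, on 48 to 118 intron counts. Summed over all genes the share was 34.5 and 29.5 in Tdrd6+/- and 29.8 and 23.4 in Tdrd6-/- samples, lowest in Tdrd6-/- replicate 2.

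Between genotypes, 5 of the 9 genes with introns (Ldha, Hk1, Eno4, Eno1 and Pfkp) had a lower share in both Tdrd6-/- samples than in both Tdrd6+/- samples, as did 38.5% of 12061 genes with at least 50 counts in every sample. Gapdhs alone was higher in both, as were 4.44% of genes. The mean difference was largest for Pfkp, from 35.1% ± 2.66 to 28.0% ± 4.00 (SD, n = 2 each), then for Eno4, from 35.8% ± 4.48 to 30.7% ± 2.53. These sizes rested on single samples: the difference of Pfkp, -7.05 percentage points, was -4.22 without Tdrd6-/- replicate 2, when that of Gapdhs (6.22) was larger, and the difference of Eno4, -5.08, was -1.91 without Tdrd6+/- replicate 1 and -3.29 without Tdrd6-/- replicate 2. The difference of Gapdhs, 4.19, was 2.16 without Tdrd6-/- replicate 1. None of the 9 passed the exact permutation test, whose smallest p of 0.33 became 0.50 after adjustment over the 9 genes. The share over all genes moved with these differences, and its part in them was not tested.

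**Figure D5:**
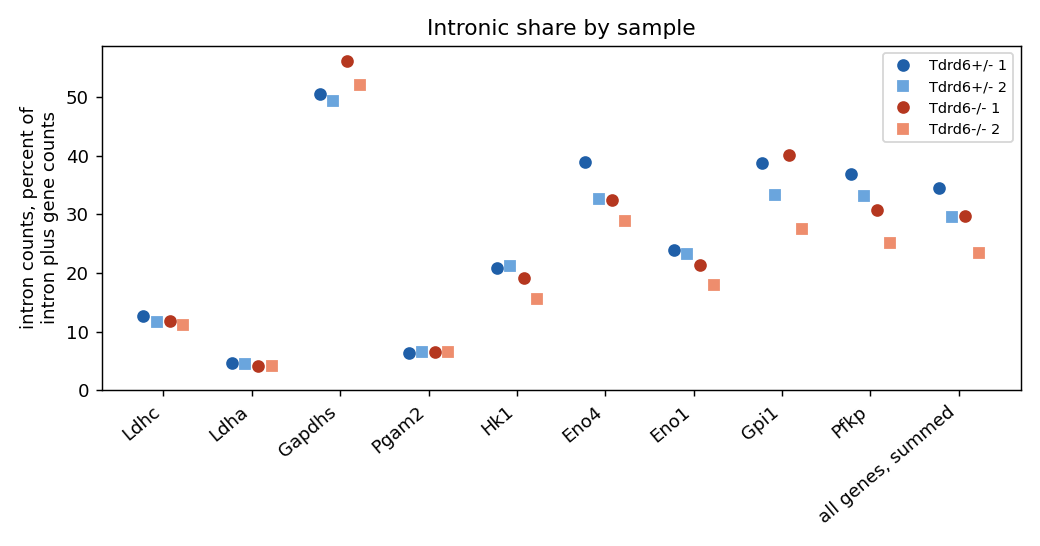
Intron counts as a percentage of intron plus gene counts for the 9 enzymes with introns and for all genes summed, 1 point per sample on a linear axis from 0. Ldha, Pgam2 and Ldhc stay below 13%, Gapdhs is near 50% or above, and Tdrd6-/- replicate 2 is lowest in 7 of the 9 genes and over all genes.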

How the data were processed

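RNA of hCD4+ testis cells was measured in 4 samples, 2 per genotype. From rRNA-depleted total RNA the authors made strand-specific libraries, aligned the reads to mm10 with GSNAP, used Ensembl release 75, and deposited raw counts per gene, exon segment, junction and intron, with no normalization and no coordinates. The counting program is not given in the sources used here. The submitters' processing notes name bcl2fastq 1.8.4.

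Gene counts were tested with edgeR 4.0.16 (R 4.3.3; TMM, filterByExpr, quasi-likelihood, Benjamini-Hochberg). The study used DEXSeq and JunctionSeq for usage, and their models were fitted here with DESeq2 1.42.0. Features needed at least 10 counts in total, and independent filtering was used. Exon segments and junctions were set against the rest of the gene, and introns against its other introns. All used a false discovery rate of 0.1. On simulated counts these usage fits found the planted changes, which were all larger than those of the called features described here. Detection of smaller changes was not tested. The fits also called features of unchanged genes more often than that false discovery rate, most at high counts. Single calls therefore need the alternatives given beside them. CPM per kb used exon lengths of GENCODE M21 (mm10). Numbers follow the chromosome, and features were placed where a gene had equal numbers in that annotation. Single values were compared by exact permutation tests (scipy 1.17.1). Rows of 940 merged overlapping genes were left out of usage tests.

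The named genes were the 10 enzymes, their general partners, called genes of the glycolysis, transport and fibrous sheath lists with the most abundant of the last 2, and called, leading or unannotated features. The members and lists were chosen with earlier results of these data known. Alternatives were other size factors, tools and filters, the replicate block, other lengths and each sample left out.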

Additional observations from a re-analysis of the deposited data

How the results depend on the processing

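The number of genes called, 794, was 75 without the filter on low counts and 257 to 1064 with a sample left out, 257 being without Tdrd6-/- replicate 2. Called introns, 1855, became 2 by edgeR's diffSpliceDGE and 72 to 3429 with a sample left out (72, 1077, 3429 and 252 without Tdrd6+/- replicates 1 and 2 and Tdrd6-/- replicates 1 and 2). Called exons and junctions, 1982, became 81 by diffSpliceDGE and 262 to 3682 (528, 3682, 918 and 262 in the same order). The cause was not tested. The log2 fold changes of Gapdhs (-0.17 to 0.58), Hk1 (-0.29 to 0.10) and Pfkp (-0.19 to 0.022), and the genotype differences in intronic share of Pgam2 (-0.0602 to 0.13 percentage points) and Gpi1 (-8.57 to 4.06), changed sign with a sample left out. Without length correction the ratios to the partner were 3.66 for Ldhc, 0.928 for Eno4, 258 for Pgk2, 1.64 for Gapdhs, 123 for Pgam2, 1.2 for Pfkp and 10.3 for Hk1. With the longest coding transcripts they were 4.85, 0.733, 289, 1.60, 259.5, 0.834 and 13.2 in the same order. The Eno4 ratio crossed 1 in both, the Pfkp ratio without length correction, and the other 5 in neither. Replicate numbers mark no shared litter or batch in the labels, and same-numbered samples deviated together with r = -0.12 over 12347 genes and 0.047 over 44784 introns. A replicate block gave 1046 genes, 2624 introns and 1439 exons and junctions, and left Ldha segment 21 and Pfkp segment 47 uncalled (adjusted p = 0.63 and 0.18, likelihood ratio test). The crossed pairing, added after seeing the data, gave 1175 genes. Each sample left out leaves 1 sample in its genotype, assumed to vary like the other genotype. Gapdhs, Pgk1 and Gapdh had under 100 counts per sample.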
